A study of Mus musculus with 28 samples.

Results

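The 9 genes described here encode cohesin subunits and their protectors, and they were followed through mouse spermatogenesis by the acetylation of lysine 27 on histone H3 (H3K27ac), a mark of active promoters and enhancers. They are the kleisin genes Rec8, Rad21l and Rad21, the SMC genes Smc1b and Smc3, the STAG genes Stag3 and Stag1, and the shugoshin genes Sgol1 and Sgol2a. They were chosen by name, as 9 genes of the 17923 with a start site listed in the peak tables. Every peak whose gene line named a member was taken, and a promoter peak was one within 1 kb of a start listed under that member alone. This gave 166 peaks of 484961, of which 80 were promoter peaks and 86 lay elsewhere, 1 of the latter in an input library. A further 21 promoter peaks carried a member's name jointly with a divergent neighbour, 11 for Smc1b with Ribc2 and 10 for Stag3 with Gpc2, and they were kept as promoter peaks. Sgol2a was listed in the tables as Sgol2, which RefSeq gives as a synonym of the same gene.

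Cohesin is a ring that holds sister chromatids together and also shapes chromatin loops. In mitotic cells the ring is built from SMC1A, SMC3, the kleisin RAD21 and a STAG protein. Germ cells entering meiosis add meiotic versions: REC8 and RAD21L are kleisins, SMC1B stands in for SMC1A and STAG3 for STAG1 or STAG2, while SMC3 serves both kinds of ring. Shugoshins guard cohesin at centromeres from removal, SGO1 mainly in mitosis and SGO2 mainly in meiosis.

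The mark was profiled by ChIPmentation, in which a transposase adds sequencing adapters to immunoprecipitated chromatin, in testicular germ cells of C57BL/6 mice that were wild type (WT) or Scml2 knockouts (KO). Thy1+ spermatogonia (the compartment that holds the stem cells) and c-Kit+ spermatogonia (differentiating cells, written KIT) came from animals at postnatal day 7, in both genotypes. Pachytene spermatocytes (PS, cells in meiotic prophase) and round spermatids (RS, haploid cells) came from adults, and only their KO libraries carried the mark in the files used. WT spermatocytes and spermatids entered as inputs only, and their H3K27ac was not analysed here. So the adult comparisons describe Scml2-KO cells alone, and between spermatogonia and adult cells stage cannot be told apart from age. The 6 H3K27ac groups had 2 libraries each, and 16 input libraries of chromatin without immunoprecipitation covered 8 groups. The labels name STA-PUT sedimentation or magnetic sorting as the isolation methods, without saying which served which cells. They do not say whether replicates came from separate animals or pools, so the p-values below measure only the spread between libraries. All cells of a sample were profiled together, so fewer cells with the mark and less of the mark per cell cannot be told apart.

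The H3K27ac libraries held 17877 to 73316 peaks and the inputs 359 to 1192. The level given for a promoter is the authors' fold enrichment, the peak height over 1 background height per library. Replicate 1 had the higher background, which tracks depth, and the larger number of peaks in all 6 groups, and the adult libraries held more peaks (63322 to 73316) than the spermatogonial ones (17877 to 36362). The lowest fold enrichment called ranged from 3.05 to 3.84. A promoter without a peak is one that was not called and not one shown to lack the mark. Thy1 KO 1 stood apart among the spermatogonia: its median shared region stood at 4.11 in log2 fold enrichment, against 3.01 to 3.44 in the other 7 libraries. Spermatid markers had a promoter peak for 6 of 6 listed genes in every adult library, PS included, with a summed fold enrichment of 60.2 to 96.5 in PS and 105 to 119 in RS, against 0 or 1 gene in the spermatogonial libraries. Of 8 spermatocyte markers, 8 were called in each adult library and 1 to 6 in the spermatogonial ones. Of 7 markers of undifferentiated spermatogonia, 2 were called in each Thy1 WT library, 2 to 6 in Thy1 KO, 1 to 4 in KIT libraries, 5 in PS and 3 to 6 in RS. Of 5 markers of differentiating spermatogonia, 0 to 2 were called in Thy1, 1 to 3 in KIT, 2 to 5 in PS and 3 or 4 in RS, so promoter calls of either list did not set the spermatogonia apart from the adult cells. Somatic markers were also present: of 5 Sertoli cell genes, 1 to 4 were called in the spermatogonial libraries (summed fold enrichment 9.59 to 27.4), 5 in PS (45.4 to 59.2) and 3 in RS (13.5 to 16.8). Leydig cell genes were called for 0 to 3 of 5 in spermatogonia, 3 in PS and 1 in RS, with no peak at Cyp17a1 or Hsd3b1 in any of the 12 libraries. Peritubular genes were called for 0 to 2 of 2 in spermatogonia, 0 or 1 in PS and 0 in RS, macrophage genes for 0 of 2, 0 or 1 and 2, and the endothelial gene Pecam1 in the adult libraries only. What part somatic cells had in the member values was not tested. A peak at the listed start of Scml2, which lies 80247 bp inside the RefSeq gene, was called in Thy1 KO 1 (6.08), KIT KO 1 (4.26) and both PS KO libraries (3.81 and 5.33) and in no WT library, and it does not check the genotype because the deleted part is not given in the sources used here.

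In all, 8 of the 9 members had a promoter peak in all 4 adult libraries, while 5 had one in all 8 spermatogonial libraries. The 5 were Rad21, Smc3, Stag1, Sgol1 and Sgol2a, and the same 5 were called in all 12 libraries. Over all 17923 genes the corresponding shares were 67.1% for the 4 adult libraries, 49.6% for the 8 spermatogonial libraries and 48.8% for all 12. The count of 5 of 9 is near its background. One member, Rec8, was called in all 4 adult libraries and in no spermatogonial library, a pattern that 5.82% of genes had. Among the 7 members called in all adult libraries and at least 1 spermatogonial library, the adult values lay wholly above the spermatogonial ones for 3, Smc1b, Stag3 and Sgol2a. The same held for 26% of 10977 genes. No promoter of a member had a peak in any of the 16 inputs.

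**Figure D1:**
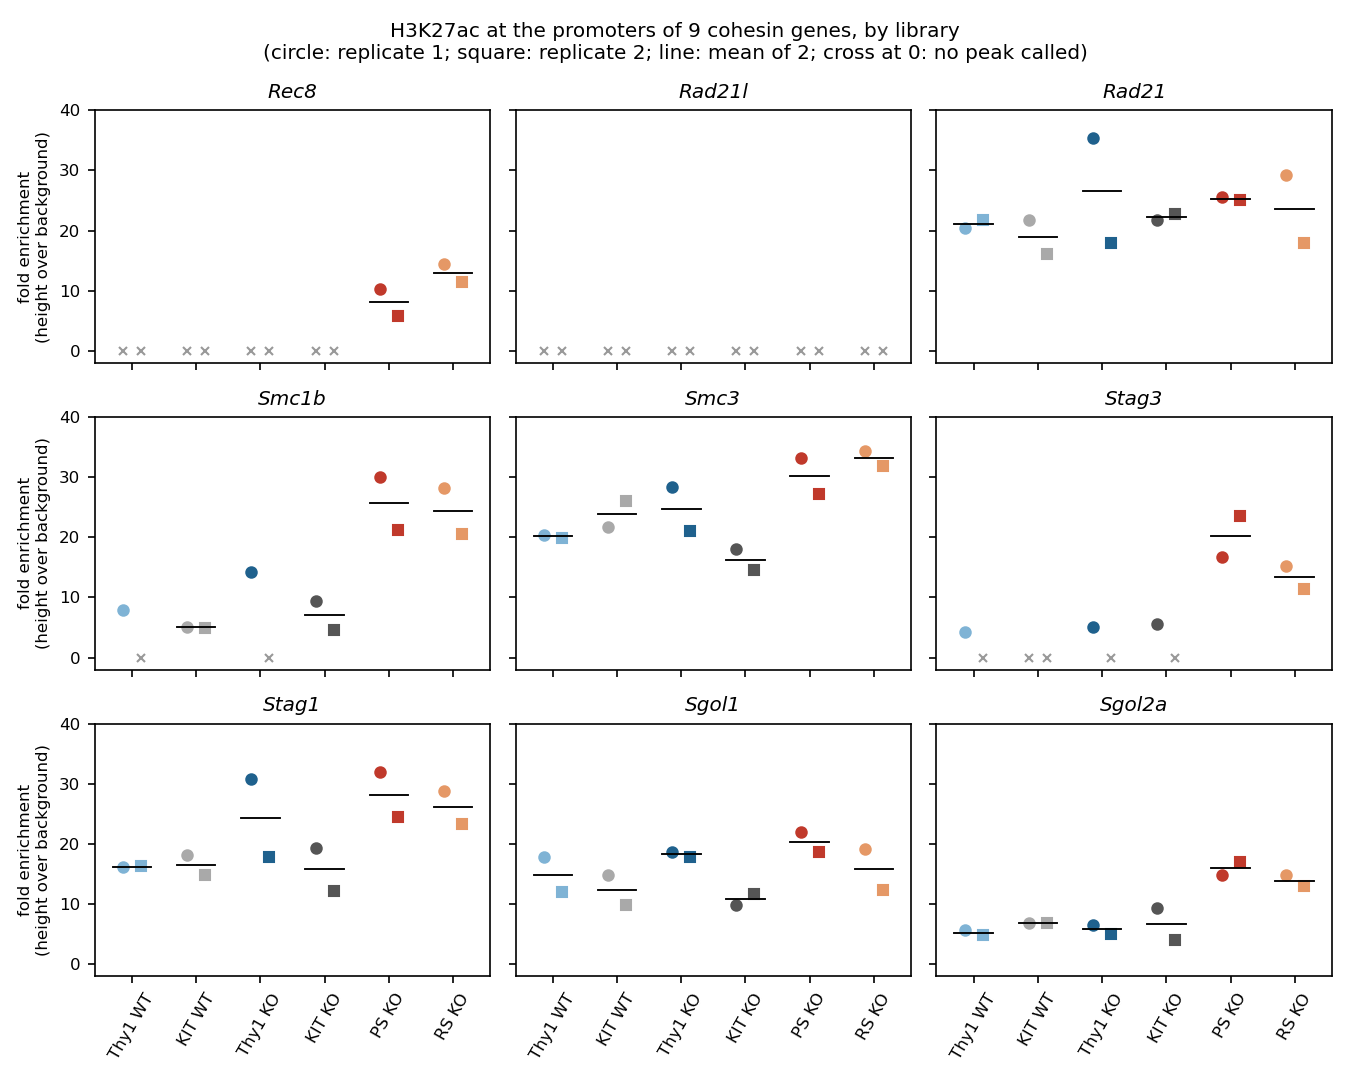
H3K27ac fold enrichment (y axis, linear) at the promoter of each of the 9 cohesin genes in the 12 H3K27ac libraries (x axis, by group; circles and squares are replicates 1 and 2, lines are means of 2 called libraries, crosses mark libraries with no peak called). Rec8 is called only in the 4 adult libraries, from 5.86 to 14.5, and Rad21 lies between 16.1 and 35.4 at every stage.

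The promoter sequences of 4 members are shown as examples: Rec8 was called in adult cells only, Smc1b and Stag3 had adult values above all spermatogonial ones, and Smc3 was called in all 12 libraries. They are the RefSeq bases (GRCm38.p6, the build the submitters' processing notes call mm10) directly upstream of the start, or, where a RefSeq gene begins inside that stretch, the part outside it. Capitals mark a match to 1 of the 6 motifs searched. Rec8 is shown from 55617916 to 55618001 on the plus strand of chromosome 14, up to the RefSeq 5′ end of the gene, which lies 164 bp before the listed start. Smc1b is shown from 85131958 to 85132059 on the minus strand of chromosome 15, the whole 102 bases between its start and the 5′ end of the divergent gene Ribc2. Stag3 (chromosome 5, 138280259 to 138280508, plus strand) and Smc3 (chromosome 19, 53600146 to 53600395, plus strand) are shown over 250 bases. A longer RefSeq isoform of Stag3 begins 7995 bp further upstream.
Rec8: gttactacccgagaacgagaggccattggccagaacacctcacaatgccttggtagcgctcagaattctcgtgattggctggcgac
Smc1b: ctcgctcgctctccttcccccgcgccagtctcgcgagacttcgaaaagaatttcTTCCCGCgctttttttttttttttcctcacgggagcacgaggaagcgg
Stag3: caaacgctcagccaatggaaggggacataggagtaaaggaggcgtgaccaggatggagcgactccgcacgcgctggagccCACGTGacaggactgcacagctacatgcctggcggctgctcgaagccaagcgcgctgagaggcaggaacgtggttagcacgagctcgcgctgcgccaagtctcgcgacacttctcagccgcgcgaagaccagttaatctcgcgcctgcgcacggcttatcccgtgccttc
Smc3: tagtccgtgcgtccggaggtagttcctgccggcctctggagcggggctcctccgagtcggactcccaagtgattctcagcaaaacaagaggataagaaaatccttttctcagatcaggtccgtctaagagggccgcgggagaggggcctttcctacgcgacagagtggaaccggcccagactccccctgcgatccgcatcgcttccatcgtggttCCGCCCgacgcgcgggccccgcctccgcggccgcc

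Over the 250 bases, Stag3 and Smc3 each had 26 CpG dinucleotides and Smc1b had 25, against a median of 6 over 32817 RefSeq promoters. Rec8 had 10, and the window before the listed start of Rad21l had 1 and a G+C content of 25.6% (median 52.4%). Stag1 had 31, Sgol1 21, and the starts of Sgol2a 8 (at 57985340) and 15 (at 57995974). A promoter sequence was found for 8 of the 9 members, and Rad21 had none in the table. The motifs were searched on both strands of the 250 bases. An E2F-like TTCCCGC lay at positions -48 to -42 from the Smc1b start and also in the Stag1 promoter, and 3.82% of all promoters hold it. An E-box CACGTG lay at positions -170 to -165 from the Stag3 start and at 2 places in the Sgol1 promoter (6.02% of promoters). The GC box GGGCGG was in the promoters of Smc3 (positions -35 to -30, on the minus strand), Stag1, Sgol1 and Sgol2a (32.7%). No member's window held the CRE TGACGTCA (1.55%), the MYB motif GGCNGTT (9.82%) or the STRA8 and MEIOSIN motif CNCCTCAG (6.41%). These matches describe the letters only.

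The kleisins differed from each other. Rec8, the kleisin that keeps sister chromatids together through the first meiotic division, starts at 55618166 on chromosome 14 (plus strand). Its promoter had no peak in the 8 spermatogonial libraries. The fold enrichment was 10.3 and 5.86 in PS KO replicates 1 and 2 (8.08 ± 3.13, SD, n = 2) and 14.5 and 11.4 in RS KO (12.9 ± 2.20, SD, n = 2). RS KO was thus the higher of the 2 called groups, with no overlap between their libraries. The peak spanned 487 to 2560 bp, and its highest summit lay 145 to 414 bp into the gene.

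Rad21l, the second meiotic kleisin, had no peak within 1 kb of its listed start at 151668533 on the minus strand of chromosome 2, in any library. RefSeq extends the gene 2089 bp further upstream, to 151670622, and a region named for Rad21l lay there, at 151669918 to 151670665. Its fold enrichment was 7.63 and 3.73 in PS KO, 6.26 and 4.33 in RS KO and 4.56 in Thy1 KO 1. The other 7 spermatogonial libraries had no peak at that place. Those 7 libraries thus had no call at either start, while the 4 adult libraries and Thy1 KO 1 had one at the RefSeq start alone.

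Rad21, the mitotic kleisin, was marked at every stage (start 51991760, chromosome 15, minus strand). Its fold enrichment was 20.4 and 21.7 in Thy1 WT, 21.7 and 16.1 in KIT WT, 35.4 and 17.9 in Thy1 KO and 21.8 and 22.7 in KIT KO. It was 25.5 and 25.1 in PS KO and 29.3 and 17.9 in RS KO. The 6 group means ran from 18.9 ± 3.92 in KIT WT to 26.7 ± 12.4 in Thy1 KO (SD, n = 2 each). Thy1 WT (21.1 ± 0.906) and KIT KO (22.2 ± 0.696) were neighbours in that order whose libraries did not overlap, and every other pair of neighbours overlapped. The highest summit stood 299 to 563 bp into the gene in the 12 libraries.

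Of the SMC genes, Smc1b, which encodes the meiotic partner of SMC3, had lower values or no call in spermatogonia and higher values in adult cells (start 85131957, chromosome 15, minus strand). Among the promoters called in the same library, Smc1b stood at percentiles 8.99 to 46.6 in the 6 spermatogonial libraries that called it. In the 4 adult libraries it stood at 61.6 to 92.9. It was called in 6 of 8 spermatogonial libraries: at 7.86 in Thy1 WT 1, 5.13 and 4.96 in KIT WT, 14.2 in Thy1 KO 1, and 9.46 and 4.66 in KIT KO. Both libraries without a call, Thy1 WT 2 and Thy1 KO 2, were replicate 2 of their group. In adult cells it was 30.1 and 21.3 in PS KO (25.7 ± 6.22, SD, n = 2) and 28.2 and 20.6 in RS KO (24.4 ± 5.38, SD, n = 2). PS and RS values overlapped each other, and both lay above every spermatogonial value. The peak was also longer in adult cells: it was 150 to 669 bp long in the 6 spermatogonial libraries and 1815 to 2638 bp in the 4 adult ones. The median length over all peaks was 302 to 466 bp in spermatogonial and 308 to 345 bp in adult libraries. Longer adult peaks were not particular to Smc1b. The lengths also did not overlap at Rad21, Smc3, Stag3, Sgol1 and Sgol2a, and overlapped at Stag1. Lengths over all promoters were not compared. The starts of Smc1b and Ribc2 are 142 bp apart, so the wide adult peaks cover both, but the highest summit lay 158 to 401 bp inside Smc1b in all 10 libraries.

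Smc3, the SMC subunit common to mitotic and meiotic rings, was strongly marked at every stage (start 53600396, chromosome 19, plus strand). It was 20.4 and 19.9 in Thy1 WT, 21.7 and 26.0 in KIT WT, 28.4 and 21.1 in Thy1 KO and 18.0 and 14.6 in KIT KO. It was 33.2 and 27.2 in PS KO and 34.4 and 31.9 in RS KO. The spermatogonial range of 14.6 to 28.4 and the adult range of 27.2 to 34.4 overlapped only through Thy1 KO 1 and PS KO 2, and the other 7 spermatogonial libraries lay below every adult one. The summit stayed within 157 bp of the start in all libraries, and peaks were 1071 to 1583 bp long in spermatogonia and 1908 to 3323 bp in adult cells.

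**Figure D2:**
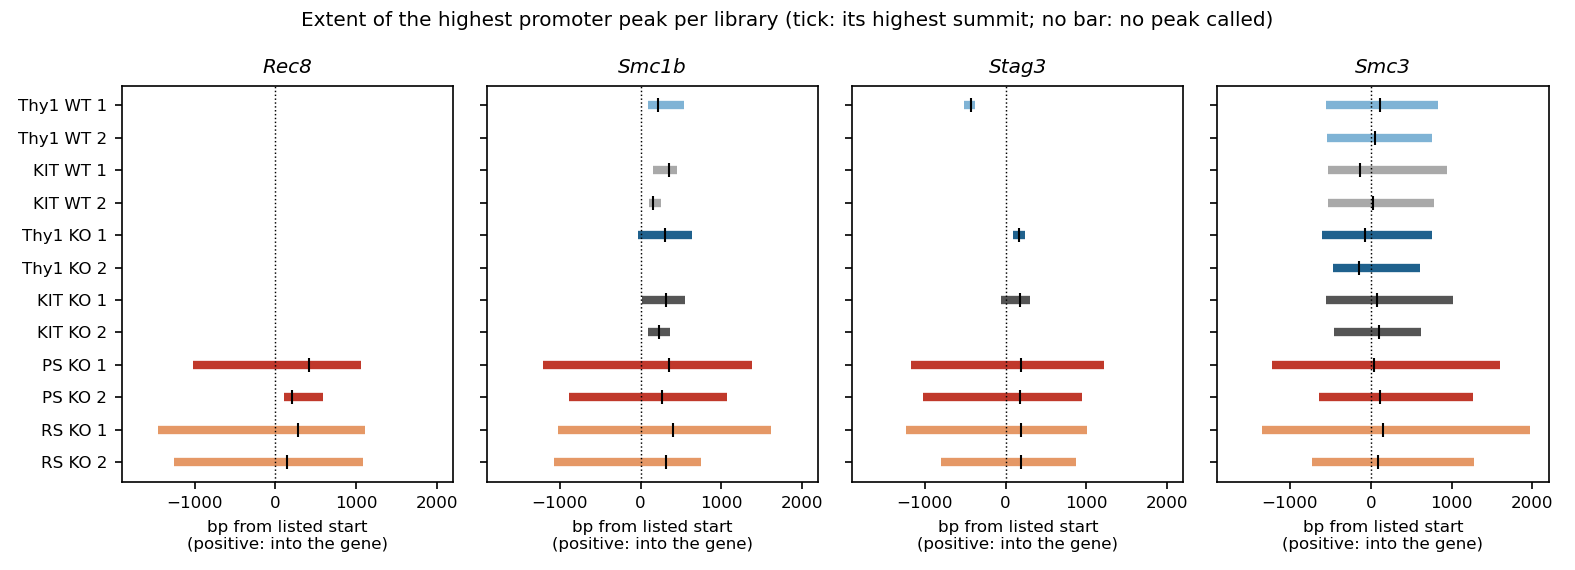
Extent of the highest H3K27ac peak at 4 promoters in each library (bars, bp from the listed start on the x axis, positive into the gene; ticks are the highest summit; libraries without a bar had no peak). The Smc1b peaks are 150 to 669 bp long in spermatogonia and 1815 to 2638 bp in adult cells, whereas Smc3 peaks of over 1000 bp are present in all 12 libraries.

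Among the STAG genes, Stag3, the meiosis-specific STAG subunit, was called in 3 of 8 spermatogonial libraries, all of them replicate 1: 4.19 in Thy1 WT 1, 5.06 in Thy1 KO 1 and 5.67 in KIT KO 1 (start 138280509, chromosome 5, plus strand). In adult cells it was 16.8 and 23.5 in PS KO (20.1 ± 4.72, SD, n = 2) and 15.3 and 11.4 in RS KO (13.3 ± 2.75, SD, n = 2). Every adult value exceeded every spermatogonial one, and the PS values lay above the RS values. The adult peaks were 1672 to 2379 bp long, with the summit 180 to 193 bp inside Stag3 in each, and extended over the start of Gpc2, 572 bp away in the other direction. In Thy1 WT 1 the only peak, 144 bp long, had its summit at -425 bp from the Stag3 start, towards Gpc2.

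Stag1, a STAG subunit of mitotic cohesin, was called in all libraries (start 100643623, chromosome 9, plus strand). It was 16.2 and 16.3 in Thy1 WT, 18.2 and 14.9 in KIT WT, 30.9 and 17.9 in Thy1 KO and 19.4 and 12.2 in KIT KO. It was 32.0 and 24.5 in PS KO and 28.9 and 23.3 in RS KO. Spermatogonial and adult values overlapped through Thy1 KO 1 alone, since the other 7 spermatogonial libraries reached at most 19.4. The longest promoter peak of any member was at Stag1, 3589 bp in RS KO 2, although Stag1 did not have the longest peak in every library. Its peaks held 2 to 8 summits.

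The shugoshins differed in level. Sgol1, whose product guards centromeric cohesin in mitosis, was called everywhere (start 53689315, chromosome 17, minus strand). It was 17.8 and 12.1 in Thy1 WT, 14.8 and 9.92 in KIT WT, 18.7 and 17.9 in Thy1 KO, 9.93 and 11.7 in KIT KO, 22.1 and 18.7 in PS KO and 19.2 and 12.4 in RS KO. The stages overlapped, and its summit lay upstream of the listed start, at -410 to -119 bp, in all 12 libraries, which held for no other member. RefSeq extends the gene 2016 bp further upstream, so these summits lie inside the RefSeq gene.

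Sgol2a, whose product protects REC8 at centromeres in meiosis, was lower in spermatogonia (start 57995974, chromosome 1, plus strand). It was 5.76 and 4.83 in Thy1 WT, 6.84 and 6.82 in KIT WT, 6.58 and 5.12 in Thy1 KO and 9.46 and 4.08 in KIT KO. In adult cells it was 14.9 and 17.1 in PS KO (16.0 ± 1.55, SD, n = 2) and 14.9 and 13.0 in RS KO (13.9 ± 1.33, SD, n = 2), above all 8 spermatogonial values. The other listed start of the gene, 57985340, had a peak in PS KO 2 only.

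These levels are not scaled between libraries. Over the regions shared by PS KO and KIT KO, the library medians of log2 fold enrichment were 4.04 and 4.09 in PS and 3.17 and 2.81 in KIT. The median shared region thus had a larger fold enrichment in PS. Changes were therefore tested relative to the median region, with limma on regions called in every library compared and Benjamini-Hochberg adjustment over all of them. A member that lacks a peak in any of the libraries is not tested in that comparison, so members that passed this filter are not a sample of the 9.

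Between KIT KO spermatogonia and PS KO spermatocytes, the step that brackets entry into meiosis, Smc1b rose and Rad21 fell relative to the median region. Of the 9 members, 6 were tested, and Rec8, Stag3 and Rad21l were not. Smc1b had a log2 change of 0.86 (SE 0.252, limma adjusted p = 0.0205), on top of the general shift, and both PS libraries exceeded both KIT libraries. Rad21 changed by -0.89 (SE 0.206, limma adjusted p = 0.00566): its fold enrichment was 21.8 to 25.5 in the 4 libraries while the median region moved up. Sgol2a (0.28, SE 0.252), Sgol1 (-0.16), Smc3 (-0.18) and Stag1 (-0.21) did not pass the threshold, with limma adjusted p from 0.427 to 0.633. Thus 1 member higher and 1 lower of 6 stood beside 6.83% of the 12501 regions higher and 25.1% lower, and the median change was -0.17 for the 6 members, -0.17 for all regions and -0.06 for the 9191 promoter regions. The Smc1b call was lost without PS KO 1 (0.58, adjusted p = 0.152) or without KIT KO 2 (0.53, adjusted p = 0.0893), and Sgol2a passed without KIT KO 1 (0.71, adjusted p = 0.0145). Under quantile normalization neither call passed (Smc1b 1.08, adjusted p = 0.127; Rad21 -0.76, adjusted p = 0.0654), and the regions past the threshold split into 386 higher and 398 lower in place of 854 and 3138.

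Rec8 and Stag3 could be entered in this comparison only with libraries lacking a peak set to the lowest fold enrichment that library called. A region entered this fit with a peak in at least 2 of the 4 libraries, so the PS calls alone admitted both genes. Their changes are therefore given as a description, with no p. Of the 40536 regions in this fit, 2385 were higher and 16581 lower past the threshold, and the median change was -0.50. On that scale Stag3 changed by 1.08 (SE 0.278), with 1 of the 4 libraries (KIT KO 2) filled in. Without KIT KO 2 its change was 0.91. Rec8 changed by 0.11 (SE 0.278), with both KIT libraries filled in. On the centred scale, the Rec8 level in PS stood about as far below the median PS region as the calling limit stood below the median KIT region.

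Between PS KO and RS KO, Rec8 was the member whose promoter rose. It changed by 0.92 (SE 0.277, limma adjusted p = 0.0448), from 10.3 and 5.86 to 14.5 and 11.4. The other 7 members tested ranged from -0.40 for Stag3 (SE 0.214, limma adjusted p = 0.223) to 0.34 for Smc3 (SE 0.21, limma adjusted p = 0.295), and none passed. Between these lay Sgol1 (-0.20), Sgol2a (-0.00), Rad21 (0.05), Stag1 (0.08) and Smc1b (0.12), and Rad21l was not tested. This 1 of 8 higher and 0 lower compares with 12.4% of 21329 regions higher and 7.79% lower, and the median change was 0.07 for the 8 members, -0.08 for all regions and -0.14 for promoter regions. The Rec8 call was lost without RS KO 1 (0.88, adjusted p = 0.393), without RS KO 2 (0.95, adjusted p = 0.378) and without PS KO 2 (0.48, adjusted p = 0.198), and with uncalled libraries filled in (0.92, adjusted p = 0.0756). Without either RS library no region at all passed, although 3623 and 3479 had an unadjusted p under 0.05.

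In spermatogonia no member promoter passed the threshold in any of 3 comparisons, each with 5 members tested (Rad21, Smc3, Stag1, Sgol1 and Sgol2a). From Thy1 to KIT, with genotype as a covariate, Sgol2a had the largest change, 0.51 (SE 0.173, limma adjusted p = 0.143), the 1 member with an unadjusted p under 0.05, and the other 4 lay between -0.25 and 0.10. Of all regions, 1.09% passed, which is 104, and 4 passed without Thy1 WT 1. Between KO and WT, with stage as a covariate, Smc3 had the largest change, -0.41 (SE 0.166, limma adjusted p = 0.881), the 1 member with an unadjusted p under 0.05, and the other 4 lay between -0.27 and -0.02. In that comparison 0% of the 9585 regions passed, and 502 had an unadjusted p under 0.05. The genotype difference did not differ detectably between Thy1 and KIT cells for a member, with limma interaction terms from -0.39 for Smc3 to 0.44 for Rad21 (adjusted p = 0.998 for each), where 0% of regions passed and 453 reached an unadjusted p under 0.05. Rec8, Rad21l, Smc1b and Stag3, the meiotic subunits, lacked a call in at least 1 of the 8 libraries and were not tested. With uncalled libraries at their lowest value, Smc1b changed by 0.16 between KO and WT (SE 0.244, limma adjusted p = 0.928) and Stag3, over a region called in 2 of the 8 libraries, by 0.02 (SE 0.199, limma adjusted p = 0.987).

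**Figure D3:**
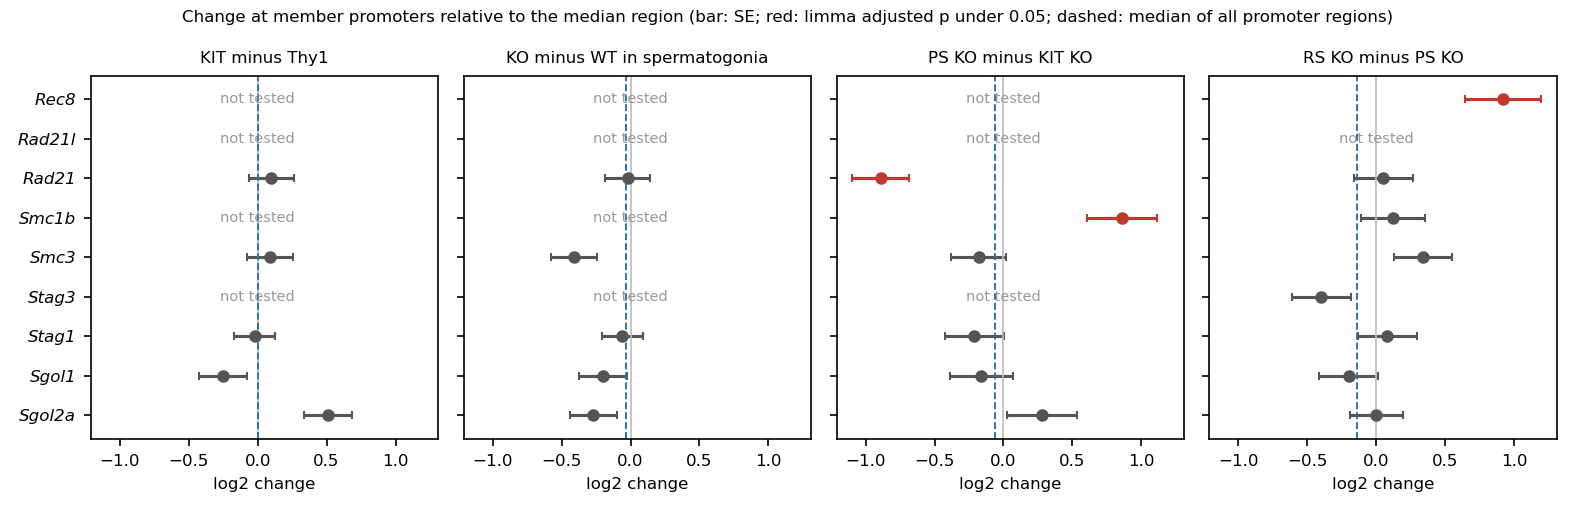
Log2 change (x axis) of H3K27ac at each member's promoter relative to the median region in 4 comparisons, with SE bars; red marks a limma adjusted p under 0.05, the dashed line is the median of all promoter regions, and members lacking a peak in any library compared are written as not tested. Smc1b (0.86) and Rad21 (-0.89) pass between KIT KO and PS KO, Rec8 (0.92) between PS KO and RS KO, and none in spermatogonia.

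A ratio within a library does not depend on how libraries are scaled, so each meiotic gene was set against its mitotic counterpart. The 4 adult KO libraries were compared with the 4 spermatogonial KO libraries. Depth can still enter such a ratio, through the 1 added to each height where heights are small and through filled values. Each set of 4 pools 2 cell types with 2 libraries each, PS with RS and Thy1 with KIT. The cell types of a set were taken as exchangeable, so the SD and p mix differences between cell types with those between replicates. Of 5 pairs planned, 4 could be formed, since Rad21l had no promoter peak. The log2 ratio of Stag3 to Stag1 averaged -0.74 ± 0.453 in adult and -2.10 ± 0.394 in spermatogonial cells (SD, n = 4 each), a difference of 1.36, and each adult library lay above each spermatogonial one. In 2 of the 4 spermatogonial libraries, Thy1 KO 2 and KIT KO 2, Stag3 had no peak and was set to the lowest fold enrichment called, so the mean, SD and p rest partly on filled values. The 2-sided exact permutation p was 0.0286, the smallest the design can give, and 0.0571 after Benjamini-Hochberg adjustment over the 4 pairs. Those 4 pairs include Rec8 over Rad21, whose p rests on filled spermatogonial values and lowers the adjusted p given for Stag3. For Rec8 over Rad21 all 4 spermatogonial values were set to the calling limit, so its difference of 1.47 restates the absence of Rec8 calls in spermatogonia and is given as a description, with no p.

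The ratio of Sgol2a to Sgol1 averaged -1.23 ± 0.782 in spermatogonial and -0.25 ± 0.276 in adult KO cells (SD, n = 4 each). The ranges overlapped, and the difference of 0.97 had an exact permutation p of 0.114. The ratio of Smc1b to Smc1a averaged -0.54 ± 0.707 in spermatogonia and 0.30 ± 0.452 in adult cells (SD, n = 4 each), with an exact permutation p of 0.114 for the difference of 0.84 and the Smc1b value of Thy1 KO 2 filled in. Smc1a, the mitotic counterpart, had itself a mean fold enrichment of 23.3 ± 3.27 in PS KO and 7.75 ± 1.07 in KIT KO (SD, n = 2 each). No pair passed after adjustment. With promoters lacking a peak set to a fold enrichment of 1, the differences for Rec8, Stag3 and Smc1b became 3.30, 2.30 and 1.33, with the adjusted p as before.

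**Figure D4:**
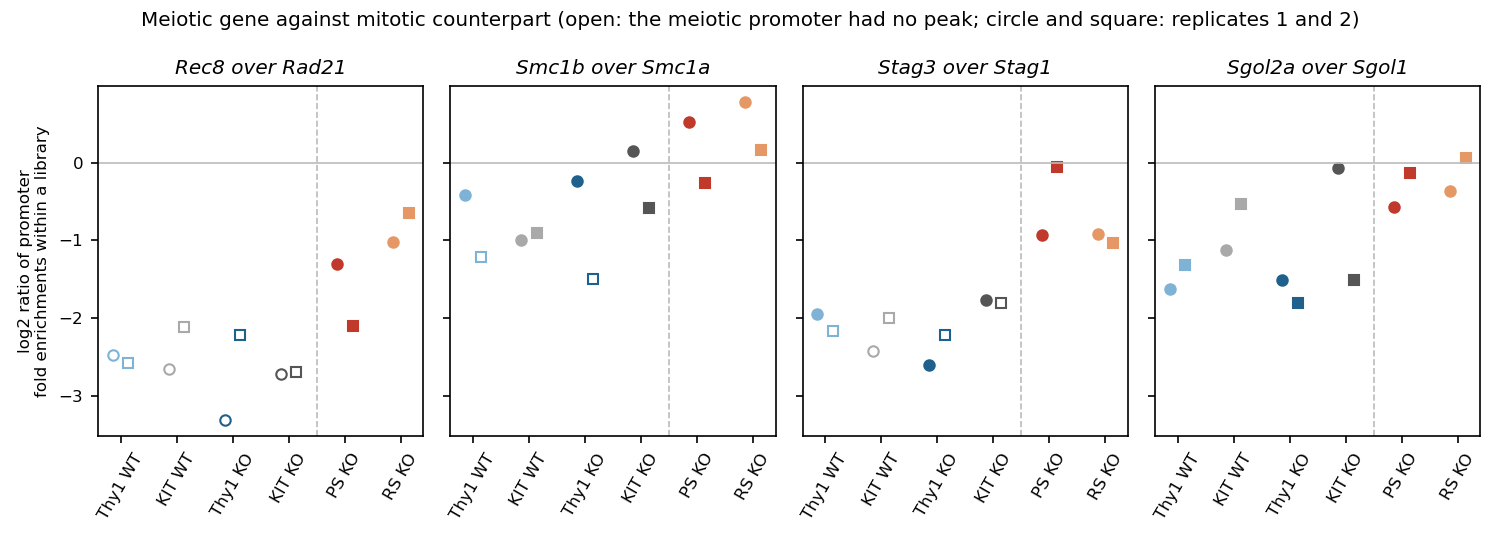
Log2 ratio of the promoter fold enrichment of a meiotic gene to that of its mitotic counterpart (y axis) in each H3K27ac library (x axis, by group; circles and squares are replicates 1 and 2; open symbols mark a meiotic promoter without a peak, set to the library's lowest value). For Stag3 over Stag1 the 4 adult libraries lie between -1.03 and -0.06 and the 4 spermatogonial KO libraries between -2.61 and -1.77.

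Outside the promoters, the members had 40 regions in H3K27ac libraries and 1 (of Smc3) in an input alone, and 19 were called in at least 2 H3K27ac libraries. Of the 19, 14 were called in adult libraries only, beside 58.4% of the 50934 regions outside promoters called in at least 2 libraries. Some were called in only 1 of the 2 adult stages. An upstream region of Rad21, at -8652 bp from its start (chromosome 15, 51999564 to 52000841), had a fold enrichment of 12.5 and 10.3 in RS KO, 4.58 in PS KO 1 and no peak in PS KO 2 or any spermatogonial library. Regions beyond the 3′ end of Rad21 at 51896362 and 51916326 were likewise called in both RS libraries (4.87 to 6.26), the second of them also in PS KO 1 (4.19). The 4 regions upstream of Smc3, at -27818 to -22486 bp (chromosome 19), showed the reverse: each was called in both PS libraries, from 3.73 to 5.86, and in no RS library. One of the 4, at 53575270 to 53576004, also had a peak in Thy1 KO 1 (5.06) and KIT KO 2 (5.25).

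Other regions lay within or near the meiotic genes. In Smc1b, a stretch of exon and intron 3886 bp from the start (chromosome 15, 85127551 to 85129186) had 5.72 and 5.33 in PS KO and 11.3 and 9.74 in RS KO. From PS to RS it rose by a log2 change of 1.12 (SE 0.193, limma adjusted p = 0.00896) while the Smc1b promoter changed by 0.12 (SE 0.232, adjusted p = 0.765). An intron of Sgol2a (chromosome 1, 57989218 to 57989823) rose by 0.87 (SE 0.21, limma adjusted p = 0.0207), from 5.34 and 4.27 to 8.21 and 7.03, and had weak peaks in KIT WT 1 (3.99) and KIT KO 1 (3.78). Both calls were lost without either RS library (limma adjusted p from 0.284 to 0.306), with changes about as large (1.16 and 1.09 for the Smc1b region, 0.90 and 0.83 for the Sgol2a region). The Rad21l 5′ region changed by 0.16 (SE 0.321, limma adjusted p = 0.773). Rec8 had exonic peaks 4870 and 6603 bp from its start in both RS libraries (3.79 to 5.87) and an upstream peak at -4628 bp in both PS libraries (5.72 and 5.86) that no RS library had.

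**Figure D5:**
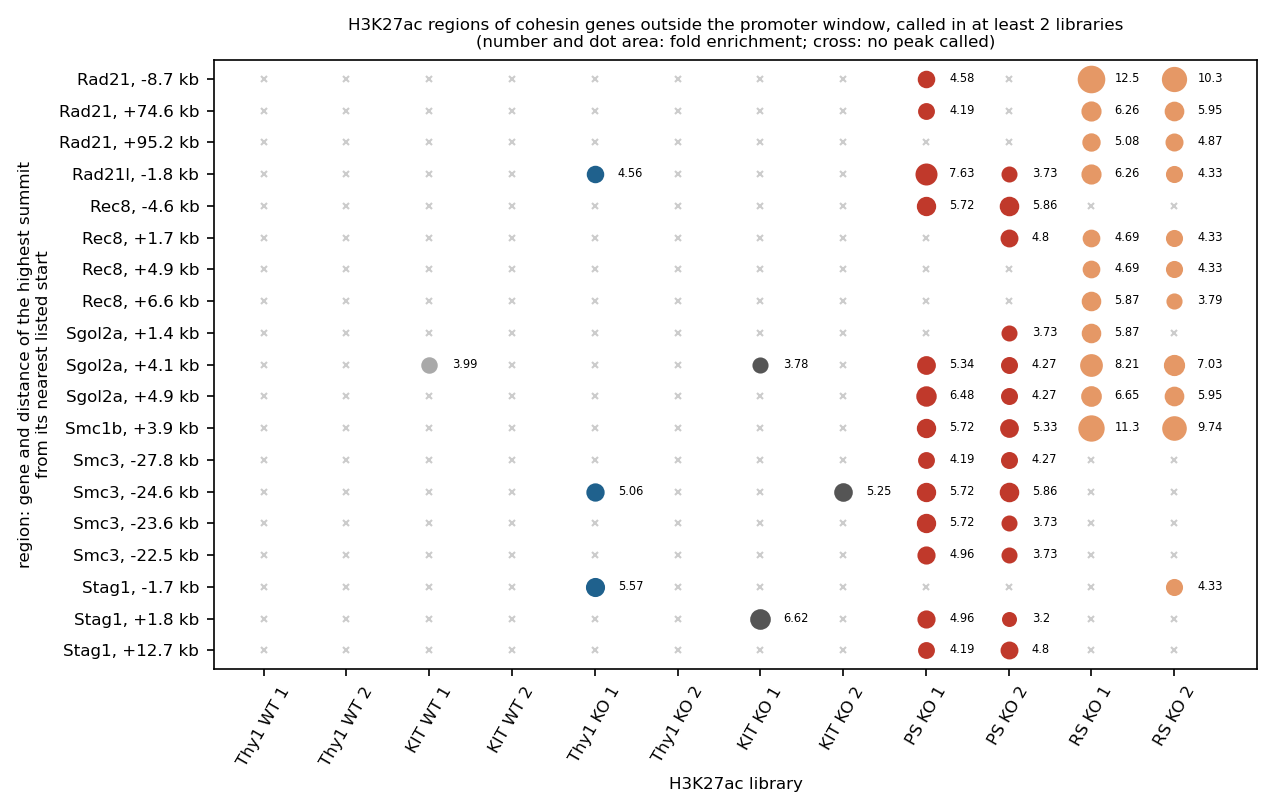
H3K27ac regions of member genes outside the promoter window that were called in at least 2 libraries (rows, with the distance of the highest summit from the nearest listed start), by library (columns); the number and dot area give the fold enrichment and crosses mark no peak. The Rad21 region at -8652 bp is highest in RS KO (12.5 and 10.3), and the 4 regions upstream of Smc3 have peaks in PS KO and none in RS KO.

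A further 16 genes of the pathway were measured the same way: the subunits Smc1a and Stag2, the loaders Nipbl and Mau2, the release factors Wapl, Pds5a and Pds5b with their antagonist Cdca5, the acetyltransferases Esco1 and Esco2, the deacetylase Hdac8, separase Espl1 with its inhibitor Pttg1, the kinetochore regulator Meikin, and Ctcf and Ctcfl, which bind insulator sites. Of the 16, 15 had a promoter peak in all 4 adult libraries and 11 in all 8 spermatogonial ones, beside the 67.1% and 49.6% of all genes. Of these genes 0 rose and 0 fell past the threshold in each of the 5 limma comparisons (11 tested in 4 of them and 15 between PS and RS), with 1 at an unadjusted p under 0.05 between KIT and PS and 1 between PS and RS. Their median change was -0.09 between KIT and PS and -0.22 between PS and RS, beside -0.06 and -0.14 for all promoter regions. The next 4 genes were chosen after their values were seen. Meikin, which acts with the shugoshins in the first meiotic division, was called in all 4 adult libraries, from 8.11 to 11.0, and in no spermatogonial one. Esco1 (27 to 33.1 in adult and 9.33 to 21.3 in spermatogonial libraries), Esco2 (9.74 to 17.9 and, in 6 of 8 libraries, 4.34 to 8.61) and Pttg1 (12.4 to 15.5 and 4.22 to 9.11) had adult values above all their spermatogonial ones. These are 3 of 14 genes, beside 26% of all genes, and the pattern of Meikin is that of 1 of 16, beside 5.82%, so neither count stands apart from the general share.

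The patterns most like that of Stag3 across the 12 libraries, by Pearson correlation of centred log2 fold enrichment over 13046 genes compared and with libraries lacking a peak at their lowest value, were those of Gpc2 (1.000, because the peak is shared), Mroh2a (0.987) and Tdrd5 (0.984). Stag3 was called in 7 of the 12 libraries, so 5 of its values are calling limits, and likeness to it includes shared missing calls. The patterns most like that of Smc3 were those of Rasa4 (0.919), Ppm1a (0.889) and Gm4262 (0.887). Among the members, the correlation with Stag3 was positive for Smc1b (0.760), Sgol2a (0.741) and Rec8 (0.519) and negative for Rad21 (-0.747), Sgol1 (-0.650), Stag1 (-0.575) and Smc3 (-0.330). Rec8 was called in the 4 adult libraries only, so its 8 spermatogonial values are calling limits, and Smc1b was called in 6 of those 8. Their correlations with Stag3 thus also include shared missing calls. All these correlations describe 12 libraries that share depth, age and stage differences.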

How the data were processed

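The files are 1 table of called peaks per library, made by the authors with Bowtie and MACS2 on mm10, per the submitters' processing notes; versions and settings are not given in the sources used here. Per the file headers, each line gives a peak's position, its length in bp, summit, signal height (pileup), −log10 p and −log10 q values and a fold enrichment. In each library the deposited fold enrichment equals (height + 1) over (background + 1) with 1 background, so it carries no input or local control. Read depth is unknown, and background height (0.564 to 1.62) served as its indicator.

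Where a peak had several summits the highest was used, and peaks on chrM were dropped. Overlapping peaks (1 bp or more) were merged into regions, and those called in every library compared were tested as log2 fold enrichment, centred on the library median, with limma 3.58.1 (R 4.3.3, adjusted p under 0.05), after tests on simulated data. Ratios were tested by 2-sided exact permutation (scipy 1.17.1). Replicate numbers are shared by all groups. After centring, which removes shifts of a whole library, same-numbered libraries' deviations correlated at 0.000391 to 0.159, and no pairing was used in the main fits. Tables of RefSeq (GRCm38.p6) gave synonyms, gene ends and promoter sequences.

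All 9 members were named in each comparison; of 16 other pathway genes, counts were given and up to 4 past the threshold were to be named. Likeness was computed for Stag3 and Smc3. The members, lists and markers were chosen with earlier results of these data known. Alternatives were a minimum fold enrichment of 5, 50% overlap, quantile normalization, uncalled libraries at their lowest value, input regions removed, a replicate block, a 500 bp window, summits within 1 kb and each library left out.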

Additional observations from a re-analysis of the deposited data

How the results depend on the processing

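The counts of regions past the threshold moved most. Between KIT KO and PS KO, 3992 regions passed, and 2480 with a minimum fold enrichment of 5, 784 under quantile normalization, 18966 with uncalled libraries at their lowest value and 2404 (without PS KO 2) to 4380 with 1 library left out. Member promoters past it went from 2 to 1 with the minimum of 5 (Smc1b then lacked a peak in a library), 0 under quantile normalization and 1 to 3 with a library left out. Between PS KO and RS KO, 4309 regions passed, and 1861, 10816 and 0 (without either RS library) to 6667 (without PS KO 1) under the minimum, the lowest values and the left-out libraries; the 1 member became 0 with the lowest values and 0 to 1 with a library left out. Between Thy1 and KIT, 104 passed, and 64 with the minimum, 314 with the lowest values, 160 without input regions and 4 to 142 without 1 library (4 without Thy1 WT 1, 37 without Thy1 KO 1, 32 without KIT WT 2, 28 without KIT KO 1, 36 without KIT KO 2). For the interaction, 0 became 1 without Thy1 WT 1. With the replicate number as a block, 206 regions passed between Thy1 and KIT. The block changed no other call of a member or count by over 1.5 times. Replicate 1 also had the higher background and more peaks in every group, and what else libraries of the same number share is not known. The causes were not tested.

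Sign changes were limited to values that had not passed. Between PS KO and RS KO, Sgol2a became 0.14 (minimum of 5), 0.02 (50% overlap) and 0.10 (quantile), and the Rad21l region -0.03 (quantile). Stag1 between Thy1 and KIT became 0.00 (quantile). Between KO and WT, Rad21 became 0.02 (minimum of 5) and 0.06 (quantile) and Stag1 0.01 (quantile). The interaction of Sgol1 became 0.02 (minimum of 5). With 1 library left out, the changes between KIT KO and PS KO ran from -0.43 to 0.01 for Stag1, -0.46 to 0.14 for Sgol1, -0.14 to 0.71 for Sgol2a and -0.32 to 0.55 for Rec8 with filled libraries. Between PS KO and RS KO they ran from -0.16 to 0.40 for Smc1b, -0.17 to 0.26 for Rad21, -0.14 to 0.31 for Stag1, -0.07 to 0.06 for Sgol2a and -0.39 to 0.71 for the Rad21l region. Between Thy1 and KIT they ran from -0.07 to 0.20 for Smc3, -0.04 to 0.22 for Rad21, -0.11 to 0.04 for Stag1 and -0.11 to 0.35 for Smc1b with filled libraries. Between KO and WT they ran from -0.16 to 0.10 for Rad21, -0.14 to 0.01 for Stag1, -0.03 to 0.42 for Smc1b and -0.14 to 0.14 for Stag3, the last 2 with filled libraries. The interaction ran from -0.39 to 0.29 for Sgol1, -0.23 to 0.57 for Sgol2a and -0.19 to 0.94 for Smc1b with filled libraries. Without PS KO 1, the Rad21l region (0.71, limma adjusted p = 0.0219) and the Sgol2a region at 57989876 (0.79, limma adjusted p = 0.00936) passed between PS and RS. No member's call pattern count moved by over 1.5 times with the minimum of 5, the 500 bp window or the summit rule. Where 1 library of a group is left out, the remaining one is assumed to vary like the other group. Having 2 libraries a group and an unknown depth limits what could be detected.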
